A study of Mus musculus with 2 samples.

Results

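Levels of 7 transcription factor genes, Ebf1, Ebf2, Ebf3, Tbx18, Pou3f4, Creb5 and Runx2, were followed across nuclei of the neonatal mouse cochlea. The 7 genes were taken by symbol from the 33696 genes of the feature list, and they were selected on their higher UMI counts in mesenchymal than in hair cell nuclei in earlier results of these same data. Their levels are therefore described, not tested. Single-nucleus RNA sequencing counted transcripts as unique molecular identifiers (UMIs) in 1 library per group. The Serpine2 cOE library came from 20 pooled cochleae of mice with the genotype Lgr5EGFP-CreER/+,Serpine2loxp/loxp, and the control library from 19 pooled cochleae of Serpine2loxp/loxp mice. All mice carried the loxP alleles of Serpine2, received tamoxifen at postnatal day 1 and were collected at postnatal day 7. The driver allele, which places Cre under Lgr5 control, was absent from the controls, so driver and Serpine2 state cannot be told apart. The name cOE stands for conditional overexpression in the labels, and the sources used here do not describe the construct. With 1 library per group there was no replicate check. The intervals given are 95% intervals for counting error only and do not cover differences between pools.

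EBF proteins (early B-cell factors) are a small family of DNA-binding factors first known from B-lymphocyte and olfactory neuron development, and they also act in mesenchymal and fat cell lineages. TBX18 is a T-box repressor and POU3F4 a POU-domain factor. Both are needed in mouse for the otic fibrocytes of the spiral ligament, and loss of POU3F4 causes X-linked deafness in humans. CREB5 is a CREB/ATF-type leucine zipper factor known from articular cartilage, and RUNX2 is the factor that commits cells to bone formation.

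The genes lie on different chromosomes of the GRCm39 assembly. Ebf1 spans chr11:44508138-44898918 on the plus strand, Ebf2 chr14:67470736-67668394 on the plus strand and Ebf3 chr7:136795402-136916218 on the minus strand. Tbx18 spans chr9:87584851-87613338 on the minus strand, Pou3f4 chrX:109857886-109860813 on the plus strand, Creb5 chr6:53264255-53677361 on the plus strand and Runx2 chr17:44806874-45125684 on the minus strand. Pou3f4 is 2.93 kb long and Creb5 413 kb long. Levels in nuclei, where unspliced transcripts are counted over such different lengths, are compared here only within a gene. Noncoding genes on the opposite strand overlap Ebf1, Ebf2, Ebf3 and Runx2, and the protein-coding gene Supt3 overlaps Runx2 over 79511 bp. Whether the authors' counting used strand is not given in the sources used here, so reads of such pairs may not be told apart.

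Promoter sequences (250 bases before to 50 after a start site) were taken from RefSeq on build GRCm38.p6, which listed 8 promoters for 6 of the 7 genes. Those of Creb5 and Runx2 are shown because the levels of this pair lay highest in different mesenchymal nuclei and because a promoter of each holds letters of a motif known for its own family. Of the 2 Creb5 promoters listed, the one at chr6:53573124-53573423 on the plus strand held 0 of the motifs searched and is not shown. The other lies on the plus strand at chr6:53287053-53287352 and its capitals mark the cyclic AMP response element TGACGTCA. The Runx2 promoter lies on the minus strand at chr17:44814578-44814877 and its capitals mark ACCACA, the reverse complement of the RUNX motif TGTGGT.
Creb5: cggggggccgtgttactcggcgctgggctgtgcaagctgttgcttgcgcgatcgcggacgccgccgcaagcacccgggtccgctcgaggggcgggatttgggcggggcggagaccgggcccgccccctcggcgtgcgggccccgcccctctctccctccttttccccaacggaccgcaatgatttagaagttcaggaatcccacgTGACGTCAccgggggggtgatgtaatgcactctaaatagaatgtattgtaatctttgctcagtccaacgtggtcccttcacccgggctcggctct
Runx2: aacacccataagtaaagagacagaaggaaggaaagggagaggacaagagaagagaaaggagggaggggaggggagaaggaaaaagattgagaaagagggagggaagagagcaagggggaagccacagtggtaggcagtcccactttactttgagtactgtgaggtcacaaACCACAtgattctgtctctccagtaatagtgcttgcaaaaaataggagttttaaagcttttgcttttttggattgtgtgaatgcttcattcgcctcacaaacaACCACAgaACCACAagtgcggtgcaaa
The response element began at position -45 of the Creb5 promoter shown, counted from 0 at the start site. TGACGTCA, which is its own reverse complement, is held by 1.79% of the 32851 mouse promoters of this length. The 3 RUNX motifs of the Runx2 promoter began at positions -80, 23 and 31. A TGTGGT on either strand is held by 16.8% of those promoters, among them 1 of the 2 Ebf1 promoters. The EBF palindrome (TCCC and GGGA with 2 bases between), AGGTGTGA (T-box) and ATGCAAAT (octamer, the POU motif), each searched on both strands, are held by 0.904%, 1.28% and 1.74% of all promoters and by none of the 8. No motif searched overlapped another within these sequences. These matches describe letters in the window and no binding was measured.

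The libraries held 12014 and 9820 barcodes with 40429121 and 31158971 UMIs in cOE and control, of which 9777 and 8250 nuclei were kept, with medians of 2401 and 2247 UMIs. The lists of barcodes shared 27 sequences, 15 of them among kept nuclei. Although the labelled cell types are hair cell and supporting cell, 3842 of the cOE nuclei (39.3%) and 3372 of the control nuclei (40.9%) fell in the mesenchymal gate, which asked for at least 3 of 14 mesenchymal markers. The hair cell gate held 151 cOE and 141 control nuclei. A further 309 cOE and 234 control nuclei met its rule on hair cell markers but held over 1 mesenchymal marker and were left out of it. Serpine2, the targeted gene, stood at 86.0 CPM in cOE against 88.9 CPM in control nuclei (counts per 1000000 UMIs, log2 ratio -0.05, -0.13 to 0.03). In the supporting cell-like cluster 21, Lgr5, the driver gene, stood at 807 CPM in cOE against 731 CPM in control. Serpine2 stood there at 224 CPM in cOE against 150 CPM in control (log2 ratio 0.58, 0.13 to 1.05). In all supporting cell-gated nuclei Serpine2 stood at 150 CPM in cOE against 130 CPM in control (0.21, -0.07 to 0.50). Its ratios in the supporting cell-like clusters 4, 25 and 27 were 0.25, 0.41 and 0.13, and in hair cell nuclei -0.47, all with intervals that included 0. Since the assay counts transcript 3′ ends and the construct is not described, these values do not check the labels.

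Ebf2, Creb5 and Tbx18 had log2 ratios of mesenchymal over hair cell nuclei of 3.81 or more in both libraries. Ebf3 had 0 hair cell UMIs in cOE and was 3.18-fold higher in mesenchymal nuclei in control. Ebf1 was abundant in both classes. All 7 genes were higher in mesenchymal than in hair cell nuclei by over 1.5-fold in both libraries, as were 39.3% of the genes compared in cOE and 36.7% of those in control. The genes were chosen for this contrast, so nothing is read from that count. Hair cell nuclei were deeper than mesenchymal nuclei (medians of 4490 against 2456 UMIs in cOE and 4543 against 2460 in control). Free RNA can add transcripts to any nucleus, and its part in the hair cell levels was not tested.

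Ebf2 had 8170 UMIs in the mesenchymal nuclei and 7 UMIs in the hair cell nuclei of the cOE library, or 649 CPM (635 to 664) against 9.84 CPM (3.96 to 20.3). In the control library it had 10125 UMIs in mesenchymal and 20 UMIs in hair cell nuclei, or 832 CPM (816 to 849) against 28.3 CPM (17.3 to 43.8). The mesenchymal level was 66.0-fold the hair cell level in cOE and 29.4-fold in control. The size of the step depended on how hair cell nuclei were chosen. The log2 ratio of 6.04 in cOE and 4.88 in control became 2.53 and 1.93 with no limit on mesenchymal markers in hair cell nuclei, and 2.42 and 1.79 with classes taken from clusters. In control it was 5.81 among hair cell nuclei with no mesenchymal marker.

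Creb5 stood at 1091 CPM in mesenchymal and 40.8 CPM in hair cell nuclei of the cOE library (26.8-fold), and at 1324 CPM and 72.3 CPM in those of the control library (18.3-fold). Tbx18 stood at 461 CPM and 25.3 CPM in cOE (18.2-fold) and at 457 CPM and 32.6 CPM in control (log2 ratio 3.81). These 3 genes were thus all at or below 72.3 CPM in hair cell nuclei. After every nucleus was thinned to 1000 UMIs, which left out 85 cOE and 105 control mesenchymal nuclei and 4 and 9 hair cell nuclei, Creb5 was found in 55.1% of mesenchymal and 4.76% of hair cell nuclei in cOE. The control shares were 62.3% and 8.33%. Unthinned, the shares were 70.4% and 17.9% in cOE and 78.4% and 19.1% in control.

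Pou3f4 and Runx2 had smaller steps between the classes than Ebf2, Creb5 and Tbx18. Pou3f4 stood at 127 CPM in mesenchymal and 21.1 CPM in hair cell nuclei of the cOE library (6.02-fold), against 125 CPM and 22.7 CPM in those of the control library (5.53-fold). Runx2 stood at 199 CPM and 33.7 CPM in cOE (5.90-fold), against 195 CPM and 51.0 CPM in control (3.81-fold). The Runx2 mean over mesenchymal nuclei hides a high level in the Dio2/Coch subtype and in a few clusters, described further on.

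Ebf3 was at 78.3 CPM in mesenchymal nuclei of the cOE library and had 0 UMIs in its hair cell nuclei, which makes the mesenchymal level at least 18.6-fold higher with 3 counts as the floor of the hair cell sum. In the control library the levels were 90.1 CPM in mesenchymal and 28.3 CPM in hair cell nuclei (3.18-fold). Of the 20 control hair cell UMIs, 12 lay in 1 nucleus. The control log2 ratio of 1.67 was 2.94 without the highest nucleus of each class and 0.60 with hair cell nuclei that held no mesenchymal marker.

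Ebf1 differed from the others. It stood at 4936 CPM in mesenchymal and 3173 CPM in hair cell nuclei of the cOE library (1.56-fold), and at 5050 CPM and 3187 CPM in those of the control library (1.58-fold). Ebf1 was found in 98.7% of cOE and 99.3% of control hair cell nuclei, and in 91.8% and 92.4% after thinning. The hair cell level of Ebf1 was 64.3% of its mesenchymal level in cOE and 63.1% in control. The same share was 1.52% in cOE and 3.41% in control for Ebf2, and for the other 5 genes it ran up to 16.9% in cOE (Runx2) and 31.5% in control (Ebf3). The order of the classes was not stable for Ebf1. Classes were also taken as whole clusters (mesenchymal-like clusters 8, 9, 10 and 29, hair cell-like clusters 11, 14 and 23). Ebf1 was then lower in mesenchymal than in hair cell nuclei, at log2 ratios of -0.15 in cOE and -0.14 in control. Cluster 11, with a median of 6 mesenchymal markers per nucleus, had 4890 CPM in cOE against 4721 CPM in control. Cluster 14 had 2901 CPM and 2944 CPM, and cluster 23 had 3282 CPM and 3540 CPM. The unnamed cluster 5, at 7574 CPM and 7034 CPM, was in neither class. A macrophage gate asked for at least 3 macrophage markers and more than of any other list. Its 111 cOE nuclei had 3153 CPM of Ebf1 and its 145 control nuclei 1622 CPM. The level was lower in a macrophage-like cluster (cluster 22), with 413 CPM of Ebf1 in its 113 cOE nuclei and 346 CPM in its 153 control nuclei. Creb5 stood at 201 CPM in that cluster in cOE and 287 CPM in control, above its hair cell level. Summed mesenchymal markers stood at 873 CPM in cOE against 473 CPM in control in that cluster, where Twist2 alone was at 0 in control. In hair cell nuclei they stood at 186 CPM in cOE, with Col5a1, Prrx1 and Twist2 at 0, against 166 CPM in control, with Col5a2 and Twist2 at 0.

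**Figure D1:**
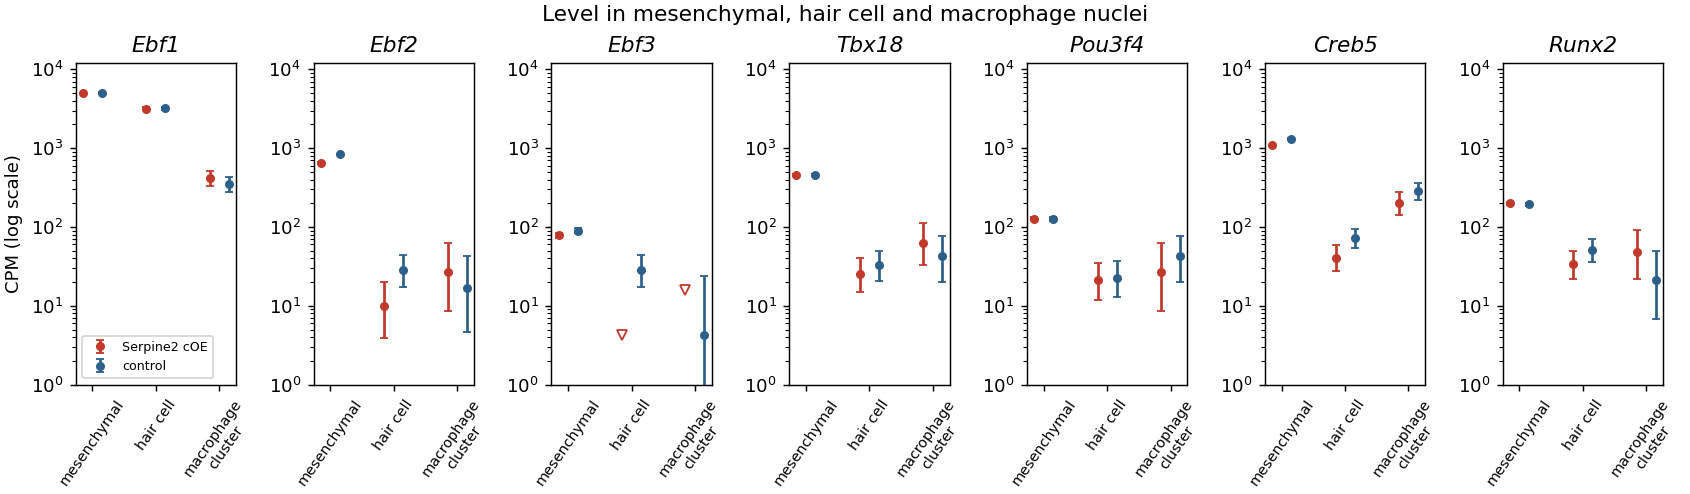
Level of each gene in CPM on a log scale in mesenchymal-gated nuclei, hair cell-gated nuclei and the macrophage-like cluster 22, for the Serpine2 cOE library (red, left of each pair) and the control library (blue). Bars are 95% counting intervals and open triangles mark the limit that 0 UMIs allows. Ebf1 alone stays near its mesenchymal level in hair cell nuclei, at 3173 CPM in cOE against 3187 CPM in control.

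Nuclei were also clustered without the 7 genes, so that counts given to these genes took no part in forming the clusters. Overlapping genes that could share their reads, such as Supt3, were not left out. Of 31 clusters, the 21 with at least 50 nuclei in each library are described. Among them clusters 8, 9 and 10 carried enough mesenchymal markers to be called mesenchymal-like. Cluster 10 was shallow, with a median of 817 UMIs, and its name is less sure. Its summed epithelial markers were the highest of any cluster, at 1642 CPM in cOE against 1901 CPM in control. Its mesenchymal markers stood at 3848 CPM and 3632 CPM. Clusters 5, 7, 12, 15 and 19 stayed unnamed, although genes of the subtype gates described further on, such as Notum, Nkd1, Opcml and Moxd1, were among the leading genes of clusters 5 and 7. Cluster 6 had 13 cOE nuclei and 620 control nuclei at a median of 894 UMIs, led by Actb, Kdelr2 and Set, and is not compared here.

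The EBF genes did not share a pattern. Ebf1 was highest in cluster 3, an epithelial-like cluster led by Galr1, Pla2r1 and Ano1, at 11764 CPM in cOE against 11895 CPM in control. It was also above its mesenchymal level in the supporting cell-like cluster 21, at 7685 CPM in cOE against 7060 CPM in control. Its lowest levels were in the macrophage-like cluster 22, in the epithelial-like cluster 0, led by Slc12a8 and Ndst3, and in cluster 17, an epithelial-like cluster led by Tmem72 and Atp13a5, where it stood at 368 CPM in cOE against 418 CPM in control. Ebf3 was highest in cluster 21 too, at 345 CPM in cOE (300 to 396) against 277 CPM in control (228 to 334), while it stood at 136 CPM and 144 CPM in the mesenchymal-like cluster 8. For Ebf1 and Ebf3 the order of levels thus does not put mesenchymal-like clusters first. Ebf2 was highest in cluster 5, at 1122 CPM in cOE against 1359 CPM in control, then in cluster 8, at 974 CPM and 1185 CPM, and these neighbours were separated by counting error in both libraries. In cluster 3, where Ebf1 peaked, Ebf2 was near its lowest, at 19.9 CPM in cOE against 26.5 CPM in control.

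Tbx18 and Creb5 were both highest in cluster 8, which is led by Col6a6, Unc13c and Aldh1a2. Tbx18 stood there at 773 CPM in cOE against 780 CPM in control, ahead of cluster 19 at 617 CPM and 599 CPM. Creb5 stood there at 2074 CPM in cOE against 2475 CPM in control, ahead of cluster 5 at 1412 CPM and 1498 CPM. Pou3f4 had its own peak in the small unnamed cluster 15, led by Lypd2, C1ql1 and Irx1, at 302 CPM in cOE (240 to 376) against 336 CPM in control (281 to 399), separated from the next cluster in both libraries. Of the 21 clusters, Runx2 was highest in the mesenchymal-like cluster 9, led by Hhip, Gria1 and Tspan11, at 1539 CPM in cOE against 1486 CPM in control. The next of them, the unnamed cluster 20, had 225 CPM in cOE against 228 CPM in control. Runx2 was also high in smaller clusters outside this order. It stood at 1000 CPM in cOE (23 nuclei) against 1569 CPM in control (39 nuclei) in the mesenchymal-like cluster 29. Creb5 stood there at 746 CPM and 1008 CPM. The unnamed cluster 30 had 1096 CPM of Runx2 in cOE (12 nuclei) against 631 CPM in control (14 nuclei). The height of a peak moved with the clustering in some cases. At Leiden resolution 0.5, Pou3f4 peaked at 213 CPM in cOE against 264 CPM in control and Runx2 at 940 CPM and 1004 CPM. At resolution 1.5, no cluster of this size held Ebf3 above 147 CPM in cOE or 150 CPM in control.

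**Figure D2:**
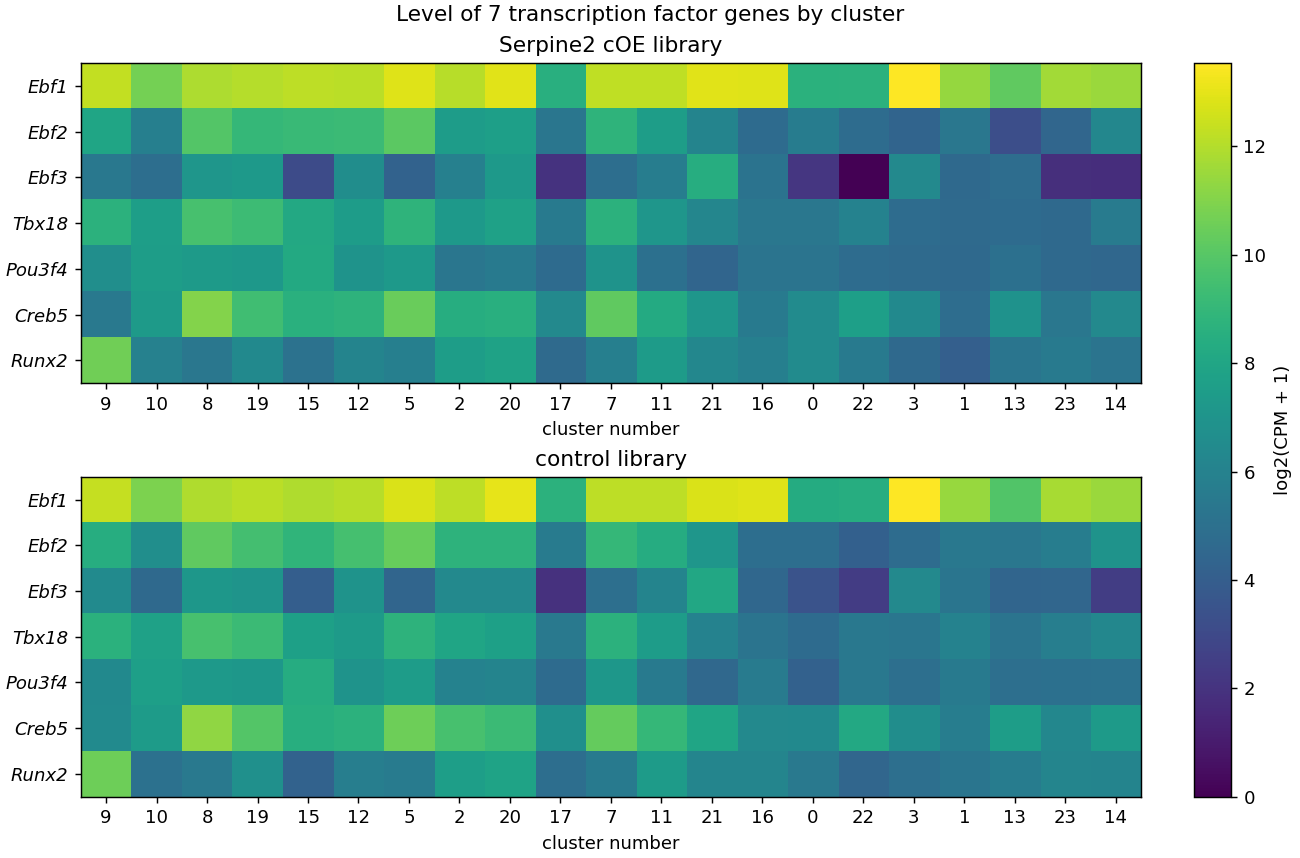
Level of each gene as log2(CPM + 1), shown by colour, in 21 clusters (columns, by cluster number, ordered from the left by falling sum of mesenchymal markers) of the Serpine2 cOE library (upper map) and the control library (lower map). Runx2 is brightest in cluster 9 at the left, Creb5 in cluster 8 and Ebf1 in cluster 3.

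Across the 21 clusters with at least 50 nuclei in each library, Pearson correlations of log2(CPM + 1) describe which genes are distributed alike. The points of each correlation share a library, and cluster depth differs between them. Ebf2 and Tbx18 went together most closely of the 7, at r = 0.91 in cOE and 0.92 in control. Tbx18 and Pou3f4 followed at 0.84 and 0.82, and Ebf2 and Creb5 at 0.79 and 0.81. Ebf1 and Ebf3 reached 0.69 in each library. Creb5 and Runx2 were nearly unrelated, at 0.04 in cOE and 0.03 in control.

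Among 12064 genes ranked, those most like Ebf2 were Gm44593, 4930438E09Rik, Cntn4, Pip5k1b and Cntn3, with r from 0.94 for Cntn3 in cOE upward. Gm44593 is a noncoding gene that lies 1422 bp from Pou3f4 on the opposite strand, and 4930438E09Rik is a noncoding gene that overlaps Ebf2 on the other strand and could share its reads. Among the genes most like Tbx18 were Ddr2, a collagen receptor gene, Prrx1, a mesenchymal homeobox gene that is also a marker of the gate, Fhl2 and Pam. Pou3f4 was most like Ptn, Pantr1, Steap3, Emcn and Gm56769. Among those most like Creb5 were Nav3, Mybpc1, Lmntd1 and Gm15261, with r of 0.92 for Nav3 in cOE and 0.90 in control.

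Ebf1 was most like Gm12158, at r = 0.97 in cOE and 0.97 in control, a noncoding gene that lies inside Ebf1 on the other strand and could share its reads. Cdh2 (N-cadherin), Igdcc4, Pantr2 and Lrrtm4 came next. Ebf3 was most like Abi3bp, Lrrc4c, Prex2, Tenm3 and Gm48715, with r of 0.84 in cOE and 0.86 in control for Abi3bp. Runx2 was most like Supt3, the overlapping gene, at 0.92 in cOE and 0.83 in control. The others were Plppr4, Gria1, Dio2, a marker of a subtype gate, and Cdh10.

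A set of 5 subtypes was gated by 2 or 3 marker genes each, which earlier results of these data had proposed as mesenchymal. The gates ask for no mesenchymal marker. Nuclei with at least 2 of the subtype's markers and of no second subtype numbered 205 in cOE and 227 in control for Col6a6/Aldh1a2, 519 and 579 for Gas2l3/Tnfaip6/Ano4, 216 and 246 for Opcml/Moxd1, 561 and 439 for Notum/Nkd1, and 38 and 24 for Dio2/Coch. Runx2 stood in the proposed name of the last subtype and was left out of its gate. As a check of the gates, nuclei held a median of 2 mesenchymal markers in Notum/Nkd1 and 5 in Col6a6/Aldh1a2 and in Dio2/Coch, in both libraries. The Notum/Nkd1 median lies below the 3 markers of the mesenchymal gate, and summed osteoblast or chondrocyte markers stood there at 1701 CPM in cOE against 1960 CPM in control, beside 1704 CPM and 1508 CPM of mesenchymal markers. Most Col6a6/Aldh1a2 nuclei lay in cluster 8 (93.2% in cOE, 93.0% in control) and most Dio2/Coch nuclei in cluster 9 (89.5% in cOE, 83.3% in control).

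Creb5 and Runx2 differed most between subtypes. Creb5 stood in Col6a6/Aldh1a2 nuclei at 2318 CPM in cOE (2188 to 2453) against 2750 CPM in control (2617 to 2889). It stood in Gas2l3/Tnfaip6/Ano4 nuclei at 1591 CPM in cOE against 1797 CPM in control, in Opcml/Moxd1 nuclei at 1118 CPM and 1223 CPM, and in Notum/Nkd1 nuclei at 757 CPM and 664 CPM. In Dio2/Coch nuclei it had 7 UMIs in cOE (80.5 CPM, 32.4 to 166) and 4 UMIs in control (48.0 CPM, 13.1 to 123). Every step of this order was separated by counting error in both libraries. Runx2 ran differently, with 3728 CPM in cOE (3333 to 4156) against 3433 CPM in control (3046 to 3854) in Dio2/Coch nuclei. In the other 4 subtypes it lay between 46.7 and 83.8 CPM in cOE and between 45.2 and 92.3 CPM in control, and no neighbours among these were separated. Its level in the next subtype was lower by a log2 ratio of 5.47 in cOE and 5.22 in control. Summed osteoblast or chondrocyte markers were also highest in this subtype, at 5281 CPM in cOE against 4225 CPM in control Dio2/Coch nuclei with 10 of 12 and 7 of 12 detected. At 0 were Matn1 and Comp in cOE, and Bglap, Bglap2, Acan, Matn1 and Comp in control. In Col6a6/Aldh1a2 nuclei the sum stood at 668 CPM in cOE, with Bglap2 and Acan at 0, against 509 CPM in control, with Matn1 at 0. In the other 3 subtypes the sum lay between 997 and 1701 CPM in cOE and between 782 and 1960 CPM in control, and was highest in Notum/Nkd1 nuclei, where Runx2 was at 76.4 CPM and 45.2 CPM. Their part in the Runx2 level was not tested.

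Ebf2 was highest in Opcml/Moxd1 nuclei, at 1161 CPM in cOE against 1331 CPM in control, then in Col6a6/Aldh1a2 nuclei at 913 CPM and 1184 CPM and in Gas2l3/Tnfaip6/Ano4 nuclei at 772 CPM and 920 CPM. It was lower in Notum/Nkd1 nuclei, at 400 CPM in cOE against 404 CPM in control, and in Dio2/Coch nuclei, at 230 CPM and 228 CPM. Each step was separated in both libraries. Tbx18 followed another order, with 784 CPM in cOE against 746 CPM in control in Col6a6/Aldh1a2 nuclei, 595 CPM and 612 CPM in Gas2l3/Tnfaip6/Ano4 nuclei, and its lowest level, 274 CPM and 256 CPM, in Notum/Nkd1 nuclei. The Opcml/Moxd1 nuclei, highest for Ebf2, had 387 CPM of Tbx18 in cOE and 369 CPM in control, and the Dio2/Coch nuclei next to them in order were not separated from them in either library.

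Ebf1 varied less. It was highest in Opcml/Moxd1 nuclei, at 7523 CPM in cOE against 6616 CPM in control, and its lowest levels were in Col6a6/Aldh1a2 nuclei in cOE (3598 CPM) and in Notum/Nkd1 nuclei in control (3531 CPM). Ebf3 was highest in Col6a6/Aldh1a2 nuclei, at 158 CPM in cOE against 190 CPM in control, separated from the next subtype in cOE only. Pou3f4 lay between 104 and 183 CPM in cOE and between 60.0 CPM (5 UMIs, in Dio2/Coch nuclei) and 172 CPM in control, and no neighbouring subtypes were separated in either library.

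**Figure D3:**
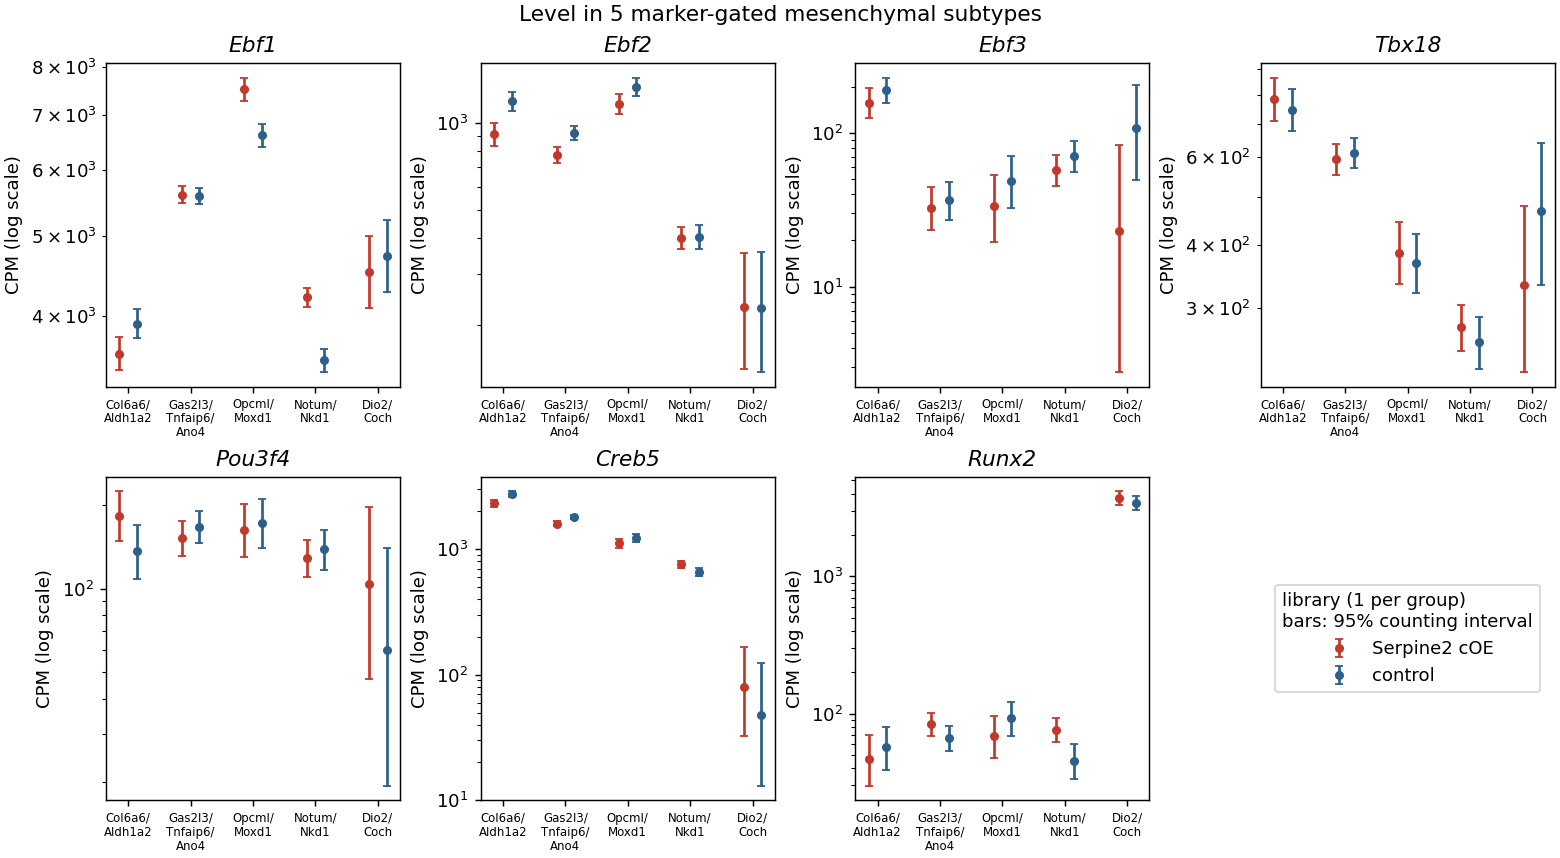
Level of each gene in CPM on a log scale in 5 marker-gated mesenchymal subtypes, for the Serpine2 cOE library (red, left of each pair) and the control library (blue), with 95% counting intervals. Creb5 steps down from Col6a6/Aldh1a2 to Dio2/Coch nuclei, where Runx2 is at 3728 CPM in cOE against 3433 CPM in control.

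Several of the 7 genes, but seldom all, were found in the same nucleus. Of unthinned mesenchymal nuclei, 30.5% in cOE and 32.6% in control held UMIs of 4 of the 7, and 1.35% and 1.96% held all 7. After thinning to 1000 UMIs, Creb5 and Ebf2 went together. Ebf2 was found in 51.4% of Creb5-positive nuclei and 32.6% of the others in cOE, and in 57.7% and 41.1% in control. Tbx18 was found in 44.3% of Creb5-positive nuclei and 28.9% of the others in cOE, and in 42.9% and 27.8% in control. Creb5 and Runx2 went apart. Runx2 was found in 5.07% of Creb5-positive nuclei (4.17 to 6.11) and 15.1% of the others in cOE, and in 5.16% (4.24 to 6.21) and 14.7% in control. As a share of Runx2-positive nuclei, Creb5 was found in 29.2% against 57.8% of the others in cOE, and in 36.7% against 64.7% in control. Unthinned, the Creb5 shares were 58.6% against 73.0% in cOE and 66.2% against 81.0% in control.

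**Figure D4:**
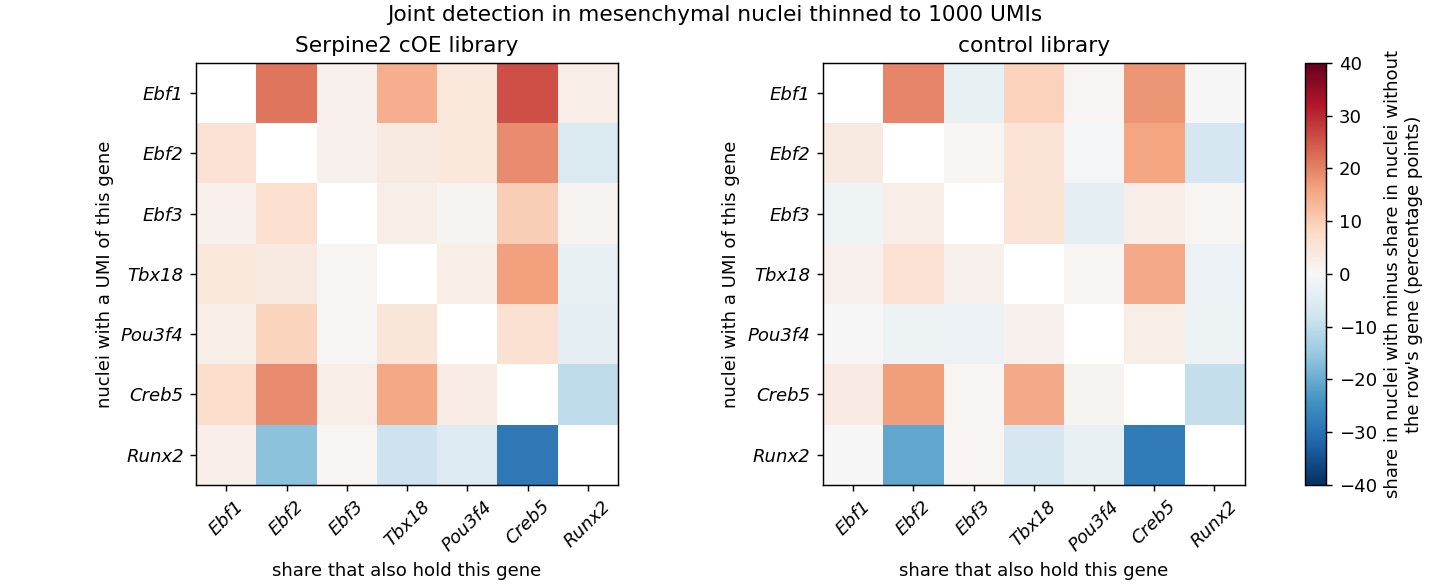
Share of thinned mesenchymal nuclei with a UMI of the row's gene that also hold the column's gene, minus that share among nuclei without the row's gene, in percentage points by colour, for the Serpine2 cOE library (left) and the control library (right). The Runx2 row is blue at Creb5 and Ebf2 in both libraries, and the Creb5 row is red at Ebf2 and Tbx18.

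Between the libraries, Ebf2 and Creb5 were lower in mesenchymal nuclei of the cOE library, while Tbx18, Pou3f4 and Runx2 lay within counting error of control. None of the 7 genes passed 1.5-fold, against 7.46% of the 15582 genes with at least 50 UMIs (3.08% higher and 4.38% lower in cOE). Ebf2 stood at 649 CPM in cOE against 832 CPM in control, a log2 ratio of -0.36 (-0.40 to -0.32), and Creb5 at 1091 CPM and 1324 CPM, a log2 ratio of -0.28 (-0.31 to -0.25). Ebf3 stood at 78.3 CPM in cOE against 90.1 CPM in control (-0.20, -0.33 to -0.08) and Ebf1 at 4936 CPM and 5050 CPM (-0.03, -0.05 to -0.02). The log2 ratios of Tbx18 (0.01, -0.04 to 0.07), Pou3f4 (0.02, -0.08 to 0.12) and Runx2 (0.03, -0.05 to 0.12) had intervals that included 0.

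The mixture of kept nuclei differed between the libraries, since cluster 5 made up 14.9% of them in cOE and 19.8% in control. The share of each cluster among mesenchymal-gated nuclei is not given here. In the largest mesenchymal-like cluster and in cluster 5 the differences were close to those of the whole class or smaller. Ebf2 had log2 ratios of -0.28 in cluster 5 (1122 CPM in cOE, 1359 CPM in control) and -0.28 in cluster 8 (974 CPM and 1185 CPM). Creb5 had log2 ratios of -0.09 in cluster 5 (1412 CPM in cOE, 1498 CPM in control) and -0.26 in cluster 8 (2074 CPM and 2475 CPM). They were further below 0 in the mesenchymal-like cluster 9, at -0.49 for Ebf2 and -1.02 for Creb5, and in cluster 19, at -0.47 and -0.54. Cluster 15, where Pou3f4 peaked, had ratios of 0.31 for Ebf2 and 0.09 for Creb5, with intervals that included 0. Over the 21 clusters, the Ebf2 ratio was below 0 in 18, and in 13 of these the interval lay below 0, while in 1, the epithelial-like cluster 0, the interval lay above 0 (50.8 CPM in cOE, 28.5 CPM in control). The Creb5 ratio was below 0 in 18, and in 14 of these the interval lay below 0, with 0 intervals above 0. For Tbx18 the intervals lay below 0 in 4 clusters and above 0 in 0.

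The lower levels were not limited to the mesenchymal-like clusters. In the deep unnamed cluster 2, with a median of 9540 UMIs, Ebf2 stood at 175 CPM in cOE against 429 CPM in control (log2 ratio -1.29) and Creb5 at 340 CPM and 766 CPM (-1.17). In the deep hair cell-like cluster 11, with a median of 14871 UMIs, Ebf2 stood at 184 CPM in cOE against 336 CPM in control (-0.87). Creb5 stood there at 309 CPM and 511 CPM (-0.73). Other members were lower in clusters 2 and 11 too, with log2 ratios of -0.63 and -0.39 for Tbx18. Those of Pou3f4 were -0.72 and -0.58, and those of Ebf3 -0.46 and -0.41. Ebf1 had -0.10 and 0.05 and Runx2 -0.07 and 0.02. Over all kept nuclei the ratios were -0.63 for Ebf2, -0.51 for Creb5, -0.24 for Tbx18 and -0.30 for Pou3f4. Nuclei of clusters 2 and 11 also held mesenchymal markers. The median per nucleus was 4 in cOE and 6 in control in cluster 2, and 6 in each library in cluster 11. Mesenchymal-gated nuclei held a median of 5 in cOE and 4 in control, and gated hair cell nuclei 1 in each. In gated hair cell nuclei Ebf2 was at 9.84 CPM in cOE against 28.3 CPM in control (log2 ratio -1.53). Creb5 was at 40.8 CPM and 72.3 CPM there (-0.83). The Ebf2 and Creb5 ratios in clusters 2 and 11 and in gated hair cell nuclei were further below 0 than in clusters 5, 7 and 8. In the mesenchymal-like cluster 9, however, the Creb5 ratio (-1.02) was further below 0 than in cluster 11 or gated hair cell nuclei. The hair cell ratios rest on 7 against 20 UMIs of Ebf2 (-3.01 to -0.23) and 29 against 51 UMIs of Creb5 (-1.54 to -0.14). Their intervals overlap those of clusters 5, 7 and 8. With the 4 clusters left out whose median depth was over 3 times or under 0.5 times the median of all kept nuclei (clusters 2, 6, 10 and 11), the mesenchymal log2 ratios were -0.38 for Ebf2 and -0.28 for Creb5. Lgr5 stood at 29.2 CPM in cOE against 37.2 CPM in control mesenchymal nuclei, and at 246 CPM and 213 CPM in hair cell nuclei. Summed epithelial markers moved with the library in mesenchymal nuclei, at 403 CPM in cOE against 275 CPM in control with 10 of 10 detected in each. Macrophage markers stood at 77.7 CPM in cOE against 117 CPM in control with 12 of 12 detected in each, and erythroid markers at 204 CPM in cOE against 133 CPM in control with 0 of them at 0. The median mitochondrial share of kept nuclei was 0.394% in cOE against 0.300% in control. Their part in the ratios was not tested.

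**Figure D5:**
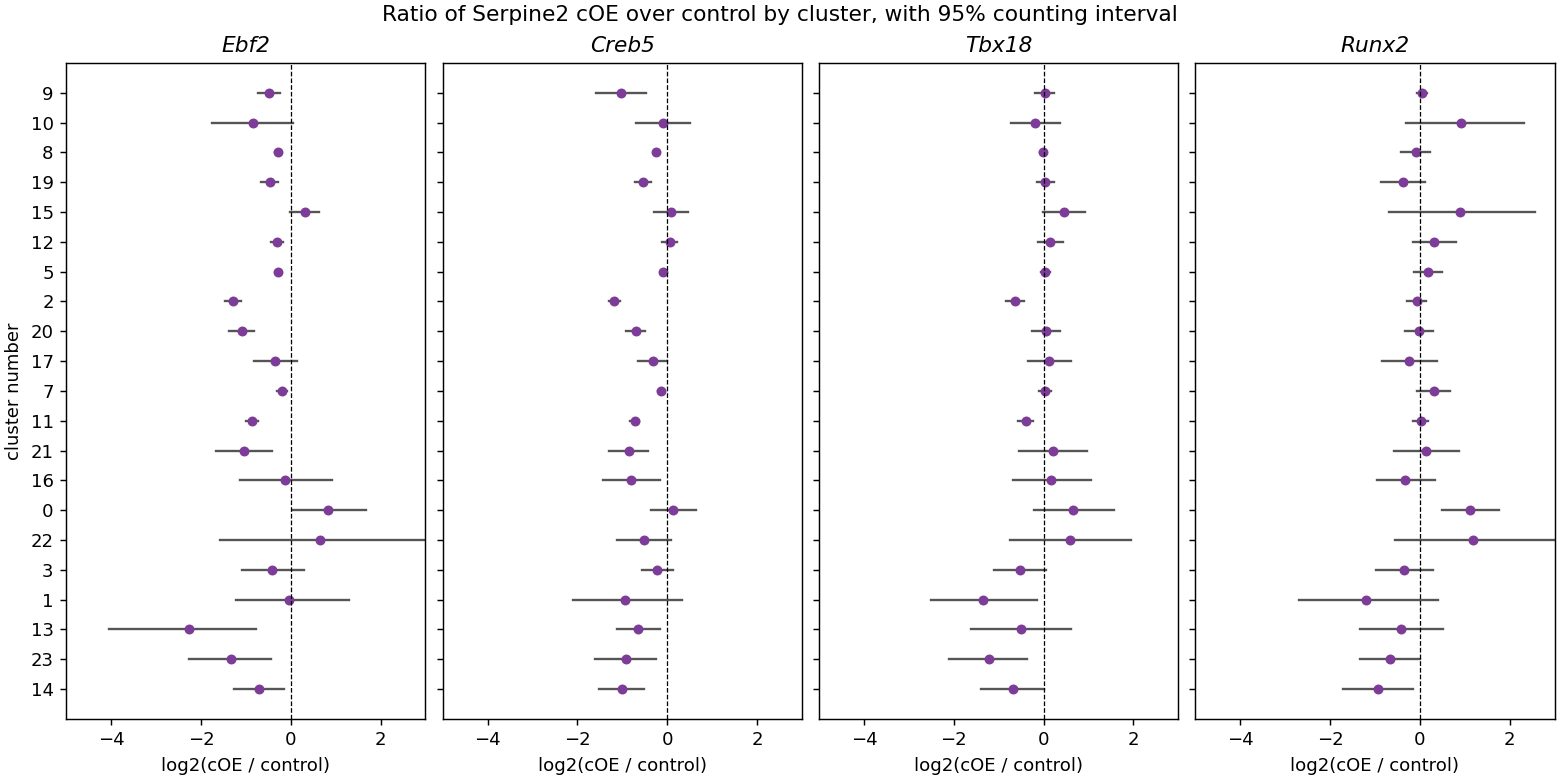
Log2 ratio of Serpine2 cOE over control for Ebf2, Creb5, Tbx18 and Runx2 in 21 clusters (rows, by cluster number, ordered from the top by falling sum of mesenchymal markers), with 95% counting intervals as lines and a dashed line at 0. Ebf2 and Creb5 points lie mostly left of 0, for instance at -1.29 and -1.17 in cluster 2, and the Tbx18 points of clusters 9, 8, 5 and 7 lie close to 0.

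In single clusters or subtypes the ratios of Runx2, Ebf3 and Creb5 were further from 0 than in mesenchymal nuclei as a whole. Runx2 in the epithelial-like cluster 0 stood at 92.4 CPM in cOE against 42.8 CPM in control (log2 ratio 1.11, 0.49 to 1.77), where 38 of the 80 cOE UMIs lay in 1 nucleus. Summed mesenchymal markers stood in that cluster at 962 CPM in cOE against 622 CPM in control with 14 of 14 detected in each, and their part in the ratio was not tested. Runx2 in Notum/Nkd1 nuclei stood at 76.4 CPM in cOE against 45.2 CPM in control (0.76, 0.25 to 1.29), where 19 of the 100 cOE UMIs lay in 1 nucleus. In the mesenchymal-like cluster 9, where Runx2 is high, Ebf3 stood at 41.4 CPM in cOE against 89.6 CPM in control (-1.11, -1.69 to -0.55). Creb5 stood in that cluster at 44.2 CPM in cOE against 89.6 CPM in control (-1.02, -1.58 to -0.47), beside 40.8 CPM and 72.3 CPM in hair cell nuclei. Ebf3 in the unnamed cluster 20 stood at 155 CPM in cOE against 80.8 CPM in control (0.94, 0.50 to 1.39).

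Of the family relatives and partners in mesenchymal nuclei, none with at least 50 UMIs passed 1.5-fold. Ebf4 stood at 39.6 CPM in cOE against 39.9 CPM in control. Zfp423, a zinc finger partner of EBF proteins, stood at 147 CPM and 172 CPM (log2 ratio -0.22), and its paralog Zfp521 at 237 CPM and 228 CPM. Cbfb, the shared partner of RUNX proteins, stood at 120 CPM in cOE against 121 CPM in control. Runx1 was at 11.8 CPM and 11.5 CPM, and Runx3 had 2 UMIs in cOE and 14 in control. Pou3f3 stood at 215 CPM in cOE against 227 CPM in control, Pou3f1 at 30.1 CPM and 28.9 CPM, and Pou3f2 had 20 UMIs in cOE and 15 in control. The T-box gene Tbx15 stood at 6.52 CPM in cOE against 5.84 CPM in control. Atf2 and Atf7, leucine zipper relatives of Creb5, stood at 185 CPM and 180 CPM in cOE and at 164 CPM and 156 CPM in control.

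Of a list of 84 other mesenchymal, skeletal and partner transcription factors, 70 had at least 50 UMIs, with a median log2 ratio of 0.05 against 0.01 over all 15582 genes. Past 1.5-fold, 3 were higher in cOE and 0 lower. These were Twist1, a regulator of mesenchyme (17.6 CPM in cOE, 11.1 CPM in control), Six2 (7.08 CPM and 3.78 CPM) and the tendon factor Scx (log2 ratio 0.79). Of 18 matrix and skeletal genes linked in the literature to RUNX2, CREB5 or POU3F4, 17 had at least 50 UMIs, with a median log2 ratio of 0.27. Higher in cOE were Ibsp, bone sialoprotein (66.1 CPM in cOE, 18.7 CPM in control), and Spp1, osteopontin (37.5 CPM and 16.9 CPM). Lower in cOE were Col1a1, a type I collagen chain (18.5 CPM and 31.1 CPM), and Prg4, lubricin (1.83 CPM and 3.04 CPM), whose interval included 0. Col1a2, the other type I collagen chain, stood at 539 CPM in cOE against 492 CPM in control (log2 ratio 0.13, 0.08 to 0.18). Both collagen genes are markers of the mesenchymal gate. The share of genes past 1.5-fold in either direction was 7.46% over all genes tested, and 1 library per group does not tell a difference between pools from one between genotypes.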

How the data were processed

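Per the file headers, the matrices are the output of Cell Ranger 8.0.1. The authors deposited raw counts, which are whole numbers of UMIs for each gene in each barcode. The submitters' processing notes also name STAR, in a version not given in the sources used here, and build mm10, while the series text names GRCm39. No count here depended on coordinates. Of 33696 gene identifiers, 33185 were matched to GENCODE M39 for positions.

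Nuclei with at least 500 genes and at most 5% mitochondrial UMIs numbered 10817 in cOE and 8953 in control. Scrublet scored doublets in scanpy 1.11.5. Its automatic threshold marked 0% in either library, so the top 0.8% of scores per 1000 barcodes was removed, 1040 nuclei (9.61%) in cOE and 703 (7.85%) in control. Mesenchymal nuclei held at least 3 mesenchymal markers and more than of any other list. Hair cell nuclei held at least 4 hair cell markers, more than of any other list, and at most 1 mesenchymal marker. Subtype nuclei held at least 2 subtype markers, a single subtype, and under 2 epithelial, hair cell and macrophage markers each. Counts were clustered with 3000 variable genes, 50 principal components, 15 exact neighbours weighted by their shared neighbours, and Leiden resolution 1, without the 7 genes. UMIs were summed per group of nuclei and given as CPM of the summed total. Poisson, conditional binomial and Clopper-Pearson intervals, all exact, cover counting error only, and no test or p-value was computed. The interval code was tested on simulated data. TMM factors came from edgeR 4.0.16 as an alternative.

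The members, lists, subtype markers and gates were chosen with earlier results of these data known. Named in the text are the 7 members, the 5 genes most like each (at least 200 UMIs in each library, ranked by the smaller r of the libraries, with 1 gene of these lists not reported here), listed genes past 1.5-fold, family relatives and partners, Serpine2 and Lgr5. Single clusters given for a difference between libraries, and Zfp423 and Zfp521, were picked after their values were seen.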

Additional observations from a re-analysis of the deposited data

Results flagged for a closer look

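The ratio of cOE over control pointed in opposite directions between mesenchymal subtypes for Ebf1 and Creb5, with counting intervals away from 0. The difference between subtypes was not tested. For Ebf1 the log2 ratio was 0.25 in Notum/Nkd1 nuclei (4213 CPM in cOE, 3531 CPM in control) and 0.19 in Opcml/Moxd1 nuclei (7523 CPM and 6616 CPM), against -0.12 in Col6a6/Aldh1a2 nuclei (3598 CPM and 3914 CPM). For Creb5 it was 0.19 in Notum/Nkd1 nuclei (757 CPM in cOE, 664 CPM in control), against -0.25 in Col6a6/Aldh1a2 nuclei (2318 CPM and 2750 CPM) and -0.18 in Gas2l3/Tnfaip6/Ano4 nuclei (1591 CPM and 1797 CPM). The gates rest on 2 or 3 markers, and the subtypes draw on different clusters in unequal shares.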

How the results depend on the processing

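No paired analysis was possible because each group has 1 library. Values below are log2 ratios, and the cause of each shift was not tested. Of 70 alternative values for cOE over control in mesenchymal nuclei, 55 stayed within counting error of the value given, 15 moved and 0 changed sign as a called value. With classes taken from clusters, Tbx18 was -0.046, Pou3f4 0.13 and Creb5 -0.32. Without doublet removal, Ebf2 was -0.44, Tbx18 -0.053 and Creb5 -0.34. With at least 5 mesenchymal markers, Ebf2 was -0.28, Pou3f4 0.16 and Runx2 -0.068. Thinned to 1000 UMIs, Creb5 was -0.33 and Runx2 0.12. Chosen after seeing the data, the mesenchymal-gated nuclei of cluster 8 alone gave -0.31 for Ebf2, 0.13 for Pou3f4 and -0.11 for Runx2, and leaving out clusters whose depth stood apart gave -0.049 for Ebf1.

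For mesenchymal over hair cell nuclei, 108 of 142 alternative values stayed, 32 moved and 2 turned round. Both that turned were Ebf1 with classes from clusters, at -0.15 in cOE and -0.14 in control. There, Ebf2 was 2.42 in cOE and 1.79 in control, Tbx18 2.64 and 2.15, Creb5 2.72 and 2.18, and Runx2 1.39 and 1.17, and Pou3f4 was 1.68 in control. With no limit on mesenchymal markers in hair cell nuclei, Ebf1 was 0.21 in cOE and 0.29 in control, Ebf2 2.53 and 1.93, Tbx18 2.43 and 2.02, Creb5 2.48 and 1.99, and Runx2 0.84 and 0.83, and Pou3f4 was 1.61 in control. With no mesenchymal marker allowed, chosen after seeing the data, Ebf1 was 0.56 and Creb5 3.98 in cOE, and Ebf2 5.81, Ebf3 0.60 and Runx2 2.49 in control. Thinned, Ebf1 was 0.71 and Pou3f4 1.69 in cOE, and Tbx18 2.62, Creb5 3.72 and Runx2 1.31 in control. Ebf3 without the highest nucleus was 2.94 in control, and Creb5 with 6 hair cell markers was 4.75 in control. Ebf3 in cOE gave no value with 0 hair cell UMIs.

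For Col6a6/Aldh1a2 over Dio2/Coch nuclei, 25 of 27 alternative values stayed. Thinned, Pou3f4 was 2.75 in cOE on 1 Dio2/Coch UMI and Runx2 was -6.59 in control, and some other thinned ratios had 0 UMIs and gave no value. Of 42 highest cluster levels under other Leiden resolutions or another seed, chosen after seeing the data, 23 stayed and 19 moved. At 2-fold, 0 listed transcription factors were higher and 0 linked genes lower. Depth limits hair cell levels, where the genes other than Ebf1 had 0 to 51 UMIs, and Dio2/Coch nuclei, where Ebf3, Pou3f4 and Creb5 had 2 to 9 UMIs.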
